A study of Mus musculus with 6 samples.

Results

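The transcripts of 9 genes linked to ADP-ribosylation were followed in cultured macrophages derived from bone marrow (BMDMs) after contact with neutrophils from injured spinal cord. They were chosen by gene symbol, as *Parp1*, *Parp2*, *Parp8*, *Parp9*, *Parp10*, *Parp11*, *Parp12*, *Parp14* and *Dtx3l*, and all 9 were found among the 55335 mouse Ensembl genes of the table. BMDMs of *Cd177* WT genotype had been grown for 7 days with 25 ng/ml M-CSF, the growth factor that turns marrow cells into macrophages. For 24 h they shared a dish with neutrophils drawn by magnetic sorting from lesions at 3 dpi (days post-injury), and they were then recovered by flow sorting as Ly6G-negative cells. The neutrophils came from *Cd177* WT mice in 3 libraries and from *Cd177* KO mice in the other 3. CD177 is a surface protein of neutrophils, and the mice were male, with adult C57BL/6 animals as WT and a purchased *Cd177*-/- line whose background strain is not given in the sources used here. By the labels both groups held WT macrophages and injury neutrophils, and the genotype of the neutrophils differed. BMDMs without neutrophils were not analysed here. The labels do not say whether the 3 libraries of a group came from separate cultures or animals, so p-values measure the spread between these libraries, which may be technical.

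PARP enzymes move ADP-ribose from NAD+ onto proteins or nucleic acids. *Parp1* and *Parp2* encode the nuclear polymerases that sense DNA strand breaks and build chains of ADP-ribose. Most of the other family members attach a single ADP-ribose unit, and several of these mono-ADP-ribosyltransferases are known as interferon-stimulated genes with roles in antiviral defence and macrophage signalling. Interferons act through transcription factors such as STAT2 and IRF9, which bind the interferon-stimulated response element in the promoters of their targets.

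The values are FPKM (fragments counted per transcript length and library total), so levels can be compared between genes. Steps in the low values put the depth roughly at 17600000 to 20200000 fragments per library. Of 10 macrophage markers all were detected, and their summed level was 6825 to 8181 FPKM in the libraries labelled WT and 7415 to 8119 FPKM in those labelled KO. *Lyz2* alone made up most of this sum, at 4462 to 5731 FPKM under WT and 5881 to 6588 FPKM under KO. The sum therefore says little about the other markers. *Cd14*, the next in level under WT, averaged 1010 FPKM there and 99.4 FPKM under KO. *Cd14* and *Fcgr1* of this list were lower in the libraries labelled KO and *Mertk* and *Adgre1* higher, with log2 fold changes of -3.33, -1.83, 0.72 and 0.30, although both rises did not pass with median-of-ratios scaling. The 15 neutrophil markers summed to 202 to 262 FPKM in the libraries labelled WT and 557 to 572 FPKM in those labelled KO. *S100a9* had the highest level of them, with means of 90.5 FPKM under WT and 234 FPKM under KO. The largest log2 fold changes were those of *Ltf*, *Ngp*, *Lcn2* and *Camp*, with 3.09, 3.02, 2.31 and 1.78. Of the 12 markers that were tested, 10 were higher under KO and 1, *Mmp8*, was lower (log2 fold change -1.12). Over all tested genes 27.1% were higher and 10.5% lower. *Ly6g*, the marker of the sort, stood at 0 in each library labelled WT and at 0.403 to 0.66 FPKM in those labelled KO. *Cd177* itself was also higher under KO, at 1.79, 1.84 and 2.28 FPKM against 0.544, 0.309 and 0.521 FPKM, which is not the direction of the labels, although the knockout lay in the neutrophils and not in the macrophages that were sequenced. Directions below are therefore between libraries as labelled. The 6 B cell markers summed to at most 1.35 FPKM under WT and 15.4 FPKM under KO, mainly from *Ighm* and *Cd79b*, while *Cd79a* was at 0 in all libraries labelled WT. The 5 dendritic cell markers summed to at most 0.519 FPKM in every library, with *Flt3* at 0 throughout. The 6 spinal cord markers summed to 15.8 to 18.2 FPKM under WT and 20.1 to 21.9 FPKM under KO, with *Snap25* and *Mog* at 0 throughout. The part of other cells in the changes given below was not tested.

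Transcripts of 4 of the 5 mono-ADP-ribosyltransferases and of both genes of the Parp9-Dtx3l pair were lower in the libraries labelled KO, and those of the polymerases *Parp1* and *Parp2* were higher. Each gene was tested with limma on log2(FPKM + 0.5), on which the change of weakly expressed genes comes out too small, with Benjamini-Hochberg adjustment over the 13367 genes that had a mean of at least 0.5 FPKM. All 9 members passed this filter. At an adjusted p under 0.05, 6 members were lower and 2 higher, while 10.5% of all tested genes were lower and 27.1% higher. Of all genes called, 72.0% were higher, and with median-of-ratios scaling, which divides each library by its median ratio to the mean library, 47.7% were higher, with 6 members lower and 1 higher. The median log2 fold change was -1.50 over the 9 members and 0.19 over all tested genes, so small rises are to be read against that shift. A log2 fold change of -1 or lower was seen in 6 members and in 4.62% of all tested genes, and one of 1 or higher in 1 member and in 6.88%. The groups did not overlap in any of the 9 members, which held for 51.9% of all tested genes, with KO below WT in 6 members (14.4% of all) and above in 3 (37.5% of all). In these bulk libraries fewer cells that carry a transcript and less of it per cell cannot be told apart.

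*Parp14* (ENSMUSG00000034422, chromosome 16 from 35832874 to 35871544 in GENCODE M21, GRCm38) encodes a large transferase with macrodomains, modules that bind ADP-ribose, and is known as a coactivator of STAT6 in the response to IL-4. It was the most abundant member in the libraries labelled WT, with 70.1, 73.7 and 52.3 FPKM, and fell to 10.8, 10.9 and 9.47 FPKM in those labelled KO. The lowest library labelled WT was thus far above the highest labelled KO. The means of 65.4 ± 11.5 and 10.4 ± 0.82 FPKM (SD, n = 3 each) stood in a ratio of 6.28, and the log2 fold change was -2.58 (SE 0.15, limma adjusted p = 3.54e-05). It ranked 120 from the lowest log2 fold change among the 13367 tested genes.

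*Parp10* (ENSMUSG00000063268, chromosome 15 from 76231174 to 76243441) encodes a mainly cytoplasmic transferase. It measured 37.1, 40.9 and 37.6 FPKM under WT against 6.62, 6.22 and 6.73 FPKM under KO. Replicates lay close together within each group, and the groups were far apart. The log2 fold change was -2.47 (SE 0.08, limma adjusted p = 3.85e-06), the smallest adjusted p of the 9 members. Its exons share 205 bases, 4.8% of its exon length, with *Plec* on the same strand, so reads from there cannot be assigned with certainty.

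*Parp12* (ENSMUSG00000038507, chromosome 6 from 39086410 to 39118349) encodes a zinc finger transferase with antiviral activity. Its levels were 48.7, 47.5 and 42.0 FPKM under WT and 12.1, 11.0 and 10.5 FPKM under KO, log2 fold change -1.99 (SE 0.10, limma adjusted p = 1.89e-05). *Parp11* (ENSMUSG00000037997, chromosome 6 from 127446840 to 127494261), which encodes a transferase of the nuclear envelope, was expressed at a lower level throughout. It had 5.35, 5.69 and 6.06 FPKM under WT and 2.30, 2.46 and 2.49 FPKM under KO. Its log2 fold change of -1.09 (SE 0.09, limma adjusted p = 0.000257) was the smallest fall among the 6 members, and the groups still did not overlap.

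*Parp8* (ENSMUSG00000021725, chromosome 13 from 116854820 to 117025537), a less studied transferase, did not fall with the others. It measured 2.16, 2.78 and 2.1 FPKM under WT against 3.09, 2.91 and 3.37 FPKM under KO. All 3 libraries labelled KO were above all 3 labelled WT, but the difference did not pass the test (log2 fold change 0.36, 95% confidence interval 0.05 to 0.66, limma adjusted p = 0.0685). Without WT replicate 2, its highest WT library, its log2 fold change was 0.46 and passed (limma adjusted p = 0.0347).

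*Parp9* and *Dtx3l* lie head to head and their proteins form a complex, in which DTX3L is an E3 ubiquitin ligase and PARP9 carries macrodomains. *Parp9* (ENSMUSG00000022906, chromosome 16 from 35938470 to 35972605, plus strand) measured 19.0, 17.9 and 19.5 FPKM under WT against 5.67, 5.86 and 5.86 FPKM under KO. Its log2 fold change was -1.61 (SE 0.08, limma adjusted p = 2.04e-05). *Dtx3l* (ENSMUSG00000049502, chromosome 16 from 35926511 to 35939151, minus strand) had 20.8, 20.97 and 14.4 FPKM under WT and 6.22, 7.06 and 5.41 FPKM under KO, log2 fold change -1.50 (SE 0.17, limma adjusted p = 0.000787). Both genes kept nearly the same level as each other in either group, 18.8 and 18.7 FPKM on average under WT and 5.80 and 6.23 FPKM under KO. The log2 ratio of *Parp9* to *Dtx3l* was 0.02 ± 0.35 under WT and -0.09 ± 0.18 under KO (SD, n = 3 each, exact two-sided permutation p = 0.7). Their annotated exons share 458 bases on opposite strands, 9.4% of the exon length of *Parp9* and 8.0% of that of *Dtx3l*, and the sources used here do not say whether strand was kept, so reads from this stretch could count for either gene.

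*Parp1* and *Parp2* moved the other way. *Parp1* (ENSMUSG00000026496, chromosome 1 from 180568924 to 180601254) measured 10.2, 9.16 and 7.78 FPKM under WT against 21.3, 20.9 and 17.4 FPKM under KO. Its mean rose from 9.04 ± 1.20 to 19.9 ± 2.15 FPKM (SD, n = 3 each), log2 fold change 1.10 (SE 0.13, limma adjusted p = 0.000898). *Parp2* (ENSMUSG00000036023, chromosome 14 from 50807841 to 50821301) had 5.86, 6.18 and 5.59 FPKM under WT and 8.0, 7.88 and 8.65 FPKM under KO. Its log2 fold change of 0.44 (SE 0.09, limma adjusted p = 0.0081) was smaller, and with median-of-ratios scaling it was 0.23 and no longer passed (limma adjusted p = 0.0922). *Parp1* still passed with that scaling, with 0.88 (limma adjusted p = 0.00175). The log2 ratio of *Parp1* to *Parp2* went from 0.57 ± 0.16 to 1.23 ± 0.22 (SD, n = 3 each, exact two-sided permutation p = 0.1, the smallest that 3 libraries against 3 can give).

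**Figure D1:**
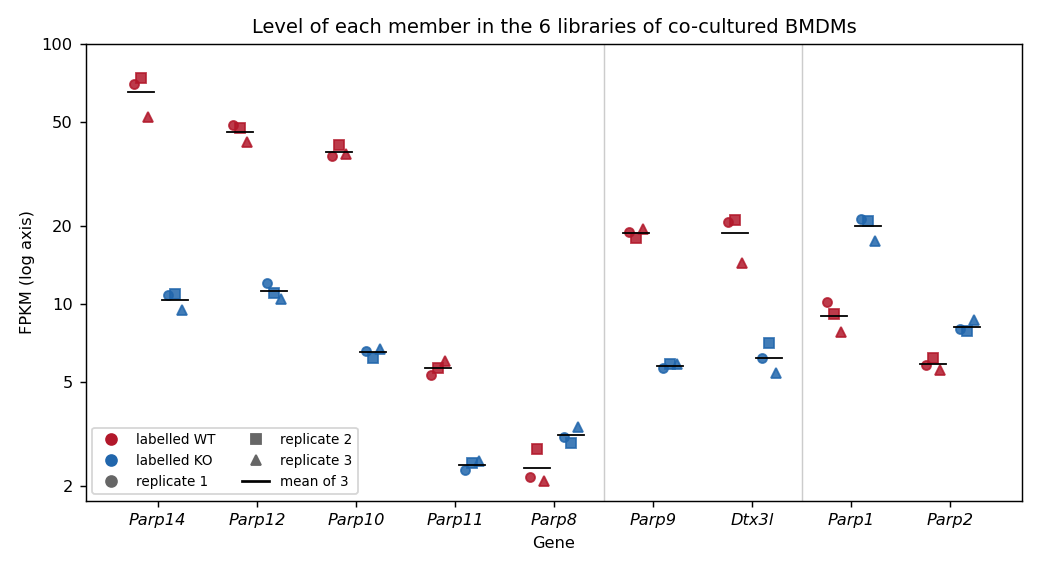
FPKM of the 9 members (log axis) in each library, red for BMDMs labelled as co-cultured with WT neutrophils and blue for those with KO neutrophils, with symbols for replicates 1, 2 and 3 and a black line for the mean. Grey lines part the 5 mono-ADP-ribosyltransferases, the Parp9-Dtx3l pair and the polymerases, and no gene has overlapping groups: *Parp14* goes from 65.4 to 10.4 FPKM on average and *Parp1* from 9.04 to 19.9 FPKM.

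The order of the levels changed with the group. In the libraries labelled WT, *Parp14* was highest, followed by *Parp12* and *Parp10*, then *Parp9* and *Dtx3l*, *Parp1*, *Parp2*, *Parp11* and *Parp8*. In this order *Parp9* did not differ from *Dtx3l*, nor *Parp2* from *Parp11*, beyond the range of their replicates. In the libraries labelled KO, *Parp1* came first, followed by *Parp12*, *Parp14*, *Parp2*, *Parp10*, *Dtx3l*, *Parp9*, *Parp8* and *Parp11*. There the ranges overlapped between *Parp12* and *Parp14*, between *Parp10* and *Dtx3l* and between *Dtx3l* and *Parp9*. *Parp14* made up 27.9% to 32.8% of the summed FPKM of the 9 members under WT and 13.5% to 14.5% under KO, while *Parp1* made up 4.08% to 4.64% and 24.9% to 28.01%. The 6 members that fell summed to 201, 207 and 172 FPKM under WT and to 43.7, 43.5 and 40.5 FPKM under KO, while *Parp1* and *Parp2* together went from 16.0, 15.3 and 13.4 FPKM to 29.3, 28.8 and 26.1 FPKM.

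To set the mono-ADP-ribosylating members against *Parp1* and *Parp2* without the scaling between libraries, the mean log2(FPKM + 0.5) of *Parp1* and *Parp2* was subtracted from that of each other member in the same library. *Parp14* stood at 3.10, 3.21 and 2.89 above this reference in the libraries labelled WT and at -0.27, -0.23 and -0.36 in those labelled KO, a difference of -3.35. *Parp12* was the steadiest, at 2.58 in every library labelled WT and at -0.11, -0.22 and -0.22 in those labelled KO, a difference of -2.76. For *Parp10*, *Parp9*, *Dtx3l* and *Parp11* the difference was -3.24, -2.38, -2.27 and -1.86. Thus *Parp14*, *Parp12*, *Parp10*, *Parp9* and *Dtx3l* were above the reference in each library labelled WT and below it in each labelled KO, and *Parp11* was below it in both. The reference itself rose, with a median log2 fold change of 0.77 for *Parp1* and *Parp2*, and each difference includes this rise. Under KO *Parp12* and *Parp14* averaged 11.2 and 10.4 FPKM, still above the 9.04 FPKM of *Parp1* under WT. *Parp10*, *Dtx3l* and *Parp9*, at 6.53, 6.23 and 5.80 FPKM under KO, were below it. *Parp8* itself had a log2 fold change of 0.36, less than the rise of the reference. Its difference was therefore -0.42, from -1.46 ± 0.17 to -1.87 ± 0.13 (SD, n = 3 each). Each of these 7 comparisons gave an exact two-sided permutation p of 0.1, the smallest that 3 libraries against 3 can give, so none could pass 0.05.

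**Figure D2:**
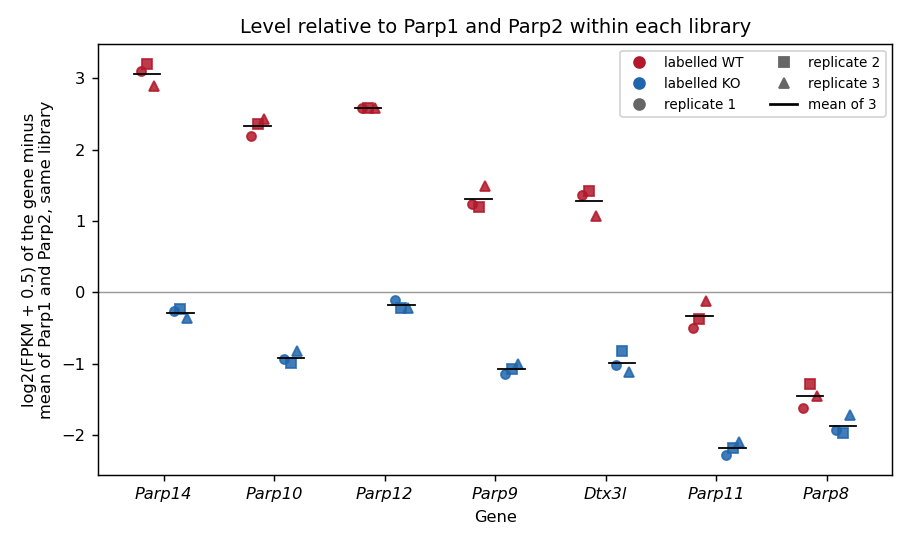
Level of 7 members relative to *Parp1* and *Parp2*, as log2(FPKM + 0.5) of the gene minus the mean of *Parp1* and *Parp2* in the same library, red for WT and blue for KO, with the mean of 3 as a black line and 0 as a grey line. *Parp14* drops from 3.07 to -0.28 on average, and *Parp8* moves least, from -1.46 to -1.87. Each move includes the rise of *Parp1* and *Parp2* themselves, whose median log2 fold change was 0.77.

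Some of the spread within groups followed transcript length. The tested genes were split into 5 groups by annotated exon length. In the group with the longest exons, WT replicate 3 lay 0.28 below the mean of replicates 1 and 2 on the log2 scale by the median, and KO replicate 3 lay 0.13 below, whereas in the group with the shortest they lay 0.26 and 0.04 above. *Parp14*, with 9306 annotated exon bases the longest member, had differences of -0.46 and -0.19 in the WT and KO groups, and *Dtx3l* had -0.52 and -0.27. Not every long member went this way, since *Parp8* (8882 bases) had -0.19 and 0.15 and *Parp11* (7026 bases) 0.12 and 0.05. Without replicate 3 of either group the log2 fold changes were -2.67 for *Parp14* (limma adjusted p = 5.06e-05) and -1.58 for *Dtx3l* (limma adjusted p = 0.000355), and again 6 members were lower and 2 higher.

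Reference promoters were searched because 6 members fell together and the interferon-stimulated response element (ISRE) is a known entry point of STAT2 and IRF9. RefSeq windows from 250 bases before to 50 bases after the start (GRCm38.p6) were found for *Parp1*, *Parp2*, *Parp8*, *Parp11* (2 starts), *Parp12* and *Dtx3l*, and not for *Parp9*, *Parp10* and *Parp14*. The ISRE core searched was TTTC, any 2 bases and TTTC again, on both strands, beside TTCNNNGAA (N is any base), the gamma-activated site (GAS) of the interferon response, which reads the same on both strands. The motifs may overlap. Of 32851 windows of this length, 3.44% held the first and 8.30% the second. The 100 bases before the start are shown for a member with both motifs (*Parp11*), a member that fell without them (*Parp12*) and members that did not fall (*Parp1* and *Parp8*), 5′ to 3′ along the gene, with matches in capitals.
*Parp11*, chr6:127446740-127446839, plus strand: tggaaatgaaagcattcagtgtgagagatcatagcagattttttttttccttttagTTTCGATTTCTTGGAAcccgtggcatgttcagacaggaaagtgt
*Parp12*, chr6:39118350-39118449, minus strand: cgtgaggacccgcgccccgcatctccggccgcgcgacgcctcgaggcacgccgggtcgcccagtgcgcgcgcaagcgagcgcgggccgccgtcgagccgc
*Parp1*, chr1:180568791-180568890, plus strand: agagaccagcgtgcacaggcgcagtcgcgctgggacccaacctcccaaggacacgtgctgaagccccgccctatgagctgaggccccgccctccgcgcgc
*Parp8*, chr13:117025532-117025631, minus strand: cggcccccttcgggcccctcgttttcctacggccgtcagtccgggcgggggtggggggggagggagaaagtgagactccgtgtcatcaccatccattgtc

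The first start of *Parp11* held TTTCGATTTC, which begins 44 bases before the start, and TTCTTGGAA, which begins 37 bases before the start and overlaps the ISRE core. Both motifs occurred together in 0.454% of all windows. The second *Parp11* start and the windows of *Parp12*, *Dtx3l*, *Parp1*, *Parp2* and *Parp8* held neither. *Parp12*, which fell more than *Parp11*, thus lacks these letters in this window. The shown stretches also differ in base composition, with 38% G and C at the first start of *Parp11* and 82%, 71% and 67% in *Parp12*, *Parp1* and *Parp8*. The 100 bases before the second *Parp11* start, not shown, had 70%. Which start these cells use was not tested.

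*Parp14*, *Dtx3l* and *Parp9* form a cluster on chromosome 16. Within 200000 bases of the cluster 7 further genes were tested, and none of them was lower at an adjusted p under 0.05. Over all tested genes 10.5% were lower and 27.1% higher. These calls were made on the FPKM as deposited, where the median log2 fold change of all tested genes was 0.19. *Kpna1*, which follows *Parp9*, had a log2 fold change of -0.21 (limma adjusted p = 0.115) and *Fam162a* one of -0.30 (limma adjusted p = 0.154). In both genes the groups did not overlap, with KO below WT, which held for 14.4% of all tested genes. *Dirc2*, *Wdr5b* and *Stfa2l1* were higher in the libraries labelled KO, with 0.53, 0.85 and 1.40, and *Hspbap1* and *Ccdc58* had 0.03 and 0.13. These neighbours were picked by position after the values of the members were known.

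The 8 other PARP genes gave another picture. Of these, *Tiparp* and *Zc3hav1* were lower in the libraries labelled KO, 6 were not called and none was higher. Over all tested genes 10.5% were lower and 27.1% higher. The median log2 fold change of the 8 was 0.01, against 0.19 over all tested genes. *Tiparp*, a transferase induced by the aryl hydrocarbon receptor, fell from 14.6 ± 0.318 to 7.81 ± 0.297 FPKM (SD, n = 3 each), log2 fold change -0.86 (limma adjusted p = 0.000308). *Zc3hav1* encodes the zinc finger antiviral protein, which binds CpG-rich viral RNA and has no transferase activity, and fell from 28.1 ± 4.15 to 16.5 ± 1.19 FPKM (SD, n = 3 each), log2 fold change -0.74 (limma adjusted p = 0.00453). Both falls were smaller than those of the 6 members. The remaining genes had log2 fold changes between -0.12 and 0.23. *Tnks* and *Tnks2*, the tankyrases that act at telomeres and on axin, had 0.14 (95% confidence interval -0.34 to 0.62) and 0.14 (-0.05 to 0.34), and with median-of-ratios scaling the sign of both turned. *Parp3*, linked to repair of double-strand breaks, had 0.23 (-0.18 to 0.64), *Parp4*, a component of vault particles, 0.23 (-0.34 to 0.81), *Parp6* -0.12 (-0.38 to 0.14) and *Parp16*, anchored in the endoplasmic reticulum, -0.11 (-0.42 to 0.20). Apart from *Parp6* and *Tnks2*, the groups of these 6 genes overlapped.

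**Figure D3:**
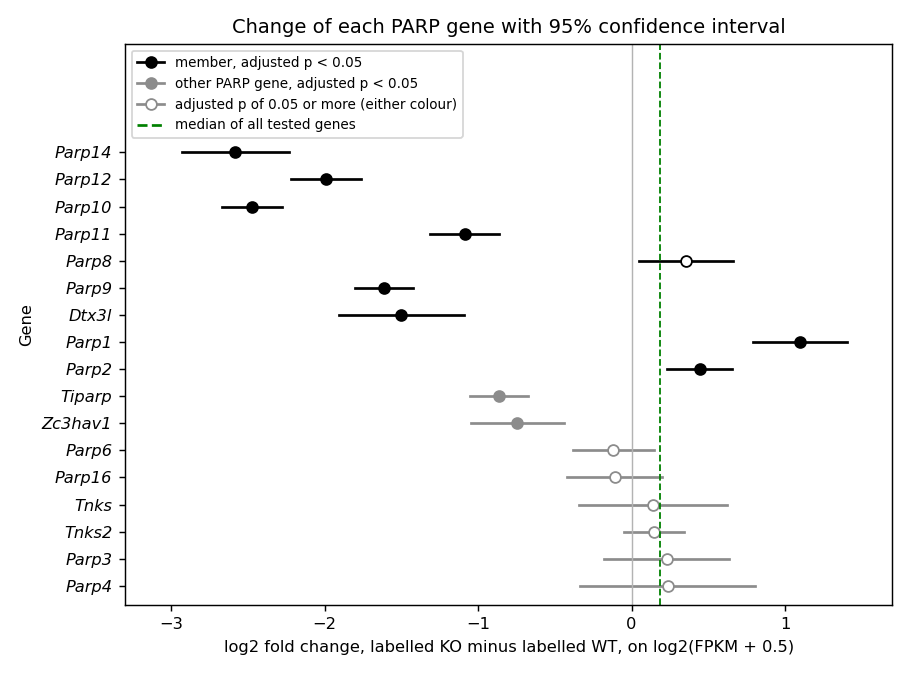
Log2 fold change (labelled KO minus labelled WT, on log2(FPKM + 0.5)) of the 9 members in black and of the 8 other PARP genes in grey, with 95% confidence intervals from limma; filled points have an adjusted p under 0.05. The green line is the median of all tested genes, 0.19, and the 6 members from -2.58 to -1.09 lie left of every other PARP gene.

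Of 8 enzymes that remove or cut ADP-ribose 7 were tested, 3 of them higher under KO and none lower, where 27.1% of all tested genes were higher and 10.5% lower. Their median log2 fold change of 0.17 lay beside 0.19 over all tested genes. *Macrod1* and *Oard1*, macrodomain hydrolases that take mono-ADP-ribose off proteins, rose by 1.06 and 0.48 on the log2 scale (limma adjusted p = 0.0072 and 0.0459), and *Nudt16*, a phosphodiesterase that can cut ADP-ribose, by 0.89 (limma adjusted p = 0.00105). *Oard1* did not pass with median-of-ratios or upper-quartile scaling. *Enpp1*, a phosphodiesterase named after its values were seen, had -0.34 (limma adjusted p = 0.0506) and was called lower under both of those scalings. *Parg*, which degrades the chains made by *Parp1* and *Parp2*, had 0.06 (95% confidence interval -0.19 to 0.31), with a negative sign under both.

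Of 16 genes that work beside *Parp1* and *Parp2* at broken DNA, 7 were higher and none was lower, where 27.1% of all tested genes were higher and 10.5% lower. Their median log2 fold change was 0.32, against 0.19 over all tested genes. With median-of-ratios scaling 3 of the 16 were higher with a median of 0.12, where 2058 of all 13367 tested genes were higher and the median over all was -0.01. *Parpbp*, a partner protein of PARP1, and *Lig1*, the ligase of replication and repair, rose by 1.09 and 1.04 (limma adjusted p = 0.00143 and 0.000194). *Aplf*, a histone chaperone that binds poly-ADP-ribose, rose by 0.63 (limma adjusted p = 0.0114) and *Xrcc1*, the scaffold recruited by poly-ADP-ribose, by 0.43 (limma adjusted p = 0.0139), although *Xrcc1* did not pass with median-of-ratios scaling. *Hpf1*, the cofactor that directs PARP1 and PARP2 to serine, had 0.16 (95% confidence interval -0.16 to 0.48).

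Among the 4 other deltex ligases, relatives of *Dtx3l*, 3 were tested and only *Dtx4* was called, where 37.6% of all tested genes were called. *Dtx4* was higher in the libraries labelled KO, at 17.2 to 21.7 FPKM against 7.10 to 10.2 FPKM, log2 fold change 1.08 (limma adjusted p = 0.00259). *Dtx2* and *Dtx3* had -0.02 and 0.19. *Dtx3l* was thus the only tested deltex gene that was lower.

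The supply and use of NAD+, the substrate of every PARP enzyme, was looked at in 12 genes, of which 11 were tested. Of these, 4 were lower and 2 higher, where 10.5% of all tested genes were lower and 27.1% higher. The median log2 fold change of the 11 was 0.02, against 0.19 over all tested genes. *Nampt*, the rate-limiting enzyme of NAD+ salvage from nicotinamide, fell from 94.1 ± 7.24 to 20.7 ± 0.975 FPKM (SD, n = 3 each), log2 fold change -2.15 (limma adjusted p = 9.82e-06). *Bst1* and *Cd38*, which break down NAD+ at membranes, fell by 2.88 and 2.66 on the log2 scale (limma adjusted p = 1.13e-05 and 1.36e-05). *Naprt*, which feeds nicotinic acid into NAD+, rose from 0.861 to 3.35 FPKM on average, log2 fold change 1.49 (limma adjusted p = 0.00146).

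The falls of the 6 members can be placed beside 15 well-known interferon-stimulated genes and their regulators. All 15 were lower under KO, where 10.5% of all tested genes were lower. Log2 fold changes of the 15 ranged from -5.75 to -0.33 around a median of -4.37. The list was chosen with earlier results of these data known, so this count is no independent support. *Rsad2*, *Ifit2*, *Ifit1* and *Isg15*, all antiviral effectors, had log2 fold changes of -5.75, -5.55, -5.51 and -5.38, each below the -2.58 of *Parp14*. The ratio of the WT to the KO mean was 45.4 for *Isg15*, 6.28 for *Parp14* and 2.36 for *Parp11*. Of the factors that bind the ISRE, which were named after their values were seen, *Stat2* went from 32.9 ± 10.9 to 4.58 ± 0.62 FPKM (SD, n = 3 each), log2 fold change -2.67 (limma adjusted p = 0.000394). *Irf9* changed least of the 15, from 8.57 to 6.72 FPKM, log2 fold change -0.33 (limma adjusted p = 0.0273), and with values rescaled to TPM it did not pass, so that 14 of the 15 were lower.

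**Figure D4:**
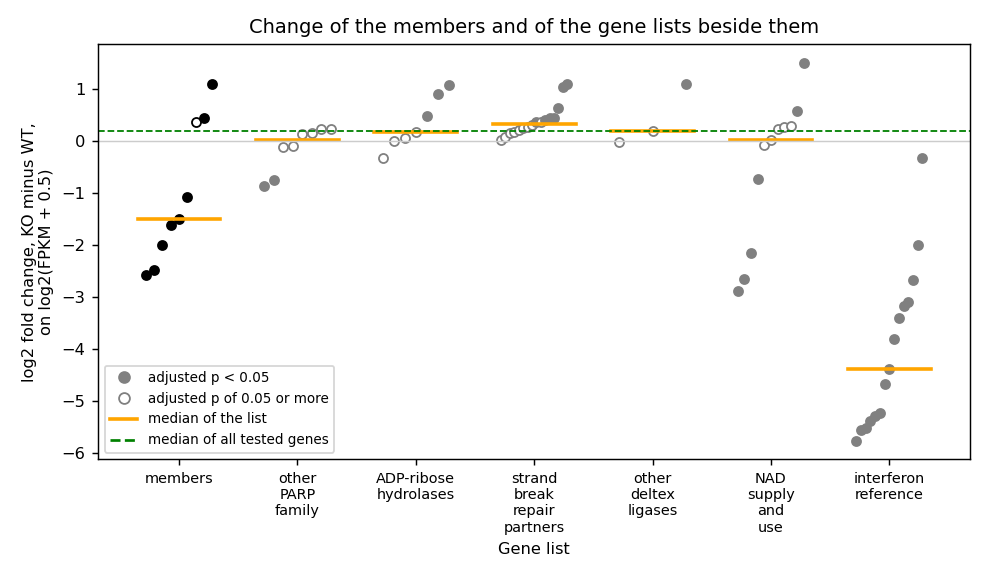
Log2 fold change (labelled KO minus labelled WT) of each tested gene in the members and in 6 gene lists, with filled points for an adjusted p under 0.05, an orange bar for the median of the list and a green line for the median of all tested genes, 0.19. The medians are -1.50 for the members, 0.01 for the other PARP genes and -4.37 for the interferon genes.

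The genes whose profile over the 6 libraries was nearest to that of *Parp14* were *Acpp*, *Herc6*, *Tent5c*, *Slfn8* and *Ifi208*, by the Euclidean distance between log2(FPKM + 0.5) values centred on each gene's mean, which was 0.26, 0.26, 0.29, 0.31 and 0.32. Their log2 fold changes lay between -2.71 and -2.47, beside the -2.58 of *Parp14*, a closeness that follows from how they were picked. For *Ifi208*, which measured 2.98, 3.4 and 2.81 FPKM under WT and 0.0322, 0.0936 and 0.0101 FPKM under KO, the log2 fold change and the distance are set by the 0.5 added before the log, and its FPKM fell by a larger factor than that of *Parp14*. To a lesser degree the 0.5 also shrinks the fall of *Acpp*, at 0.852 to 1.12 FPKM under KO. Among the members *Parp10* was nearest, at rank 15 with a distance of 0.42, followed by *Parp12* at rank 79, *Parp9* at rank 207, *Dtx3l* at rank 228 and *Parp11* at rank 459.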

How the data were processed

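RNA-seq values of 6 libraries of BMDMs were analysed, 3 per group. The deposited table holds FPKM, made by the authors, for each gene. The submitters' processing notes name, among the authors' tools, fastp 0.17.1, HISAT2 2.1.0, DESeq2 1.18.1 and R 3.4.3, and the quantifier, annotation and genome build are not given in the sources used here. The labels and the paper's methods name different RNA reagents, library kits and sequencers. Of 55335 identifiers, 55154 matched GENCODE M21 (GRCm38), which gave symbols, positions and exon lengths. Between 42.9% and 47.5% of low values lay within 0.1 of a whole number of fragments, where 20% would by chance, so counts were not recovered and no count test was run. FPKM is scaled to each library, so abundant genes that change shift all others.

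On the scale log2(FPKM + 0.5), limma 3.58.1 (R 4.3.3, trend, two-sided, no covariate) was fitted to the 13367 genes that averaged 0.5 FPKM or more, with Benjamini-Hochberg adjustment over all of them. The authors called changed genes with DESeq2, for which the methods and the notes give different versions. On simulated data for this comparison with 13367 genes, all 100 genes changed by 1 and all 100 changed by 2 on the log2 scale were recovered, with 8 false calls. The simulated noise was independent, with a spread set by the mean level alone. The simulation therefore cannot tell how well changes are found in genes with a wider spread or with shifts that follow transcript length. Ratios between members were compared by exact permutation (scipy 1.17.1). The members and the gene lists were chosen with earlier results of these data known, and the lists come from general knowledge. Text names all members, all other PARP genes, up to 4 called genes with the largest change from each other list, *Ly6g*, *Cd177* and the 5 profiles nearest to *Parp14*. Other genes were named after their values were seen. Protein sequences were not used here, and some genes of the lists are not reported here by name. The alternatives were other pseudocounts, filters, scalings, a robust variance, the replicate number as a block, another threshold and each library left out.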

Additional observations from a re-analysis of the deposited data

How the results depend on the processing

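The 6 members that fell did so with an adjusted p under 0.05 in limma under each alternative that tested them, and 5 were counted with a mean of at least 5 FPKM, where *Parp11* and *Parp8* were not tested. The number of members that rose was 2, and it was 1 with median-of-ratios scaling (*Parp2* lost) and 1 when calls needed more than 2-fold and p under 0.05 without adjustment, the rule of the study (*Parp2* lost). With each library left out, 6 members were lower, and 2 to 3 were higher, with *Parp8* the third without WT replicate 2. The genes called over all tested genes were 5027 (3619 higher, 1408 lower), 2739 with a mean of at least 5 FPKM, 1485 by the rule of the study and 3489 to 5945 with a library left out (KO replicate 1 and WT replicate 3). With median-of-ratios scaling the split was 2058 higher and 2259 lower, or 47.7% higher against 72.0%, and the median log2 fold change of all genes was -0.01. By the rule of the study 893 were higher and 592 lower.

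With each library left out, the difference to *Parp1* and *Parp2* ranged from -3.44 to -3.28 for *Parp14*, -3.31 to -3.20 for *Parp10*, -2.80 to -2.74 for *Parp12*, -2.44 to -2.29 for *Parp9*, -2.38 to -2.20 for *Dtx3l*, -1.94 to -1.75 for *Parp11* and -0.50 to -0.33 for *Parp8*. The replicate numbers are shared by the groups, but deviations of same-numbered libraries correlated by 0.12, 0.04 and 0.26, so the numbers were not taken as pairs, and not every library correlated best with its own number. With the replicate number as a block, 6 members were lower, 2 higher and 5934 genes were called. Leaving out replicate 3 of both groups was chosen after seeing the data. Depth limits the low genes, and *Parp8*, at 2.1 to 3.37 FPKM, is with *Parp11* the lowest member.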
